A study of Mus musculus with 12 samples.

Results

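The genes described here are 9 negative regulators of mitogen-activated protein kinase (MAPK) signalling many of which are transcribed in response to that signalling: the dual-specificity phosphatase genes Dusp1, Dusp4, Dusp5, Dusp6 and Dusp10, the Sprouty genes Spry1, Spry2 and Spry4, and the Sprouty-related gene Spred1. They were taken by symbol from a table of 24098 genes, and all 9 were found in it. The study sequenced polyA RNA of 12 conditions, with 1 library each, to follow the conversion of mouse embryonic fibroblasts (MEFs) into pluripotent cells. The MEFs came from E13.5 embryos that carry an EGFP cassette behind Oct4 (Pou5f1), and D0 is these fibroblasts before infection. Retroviruses carrying Oct4, Sox2, Klf4 and c-Myc (OSKM) were then added, and D3 is the unsorted culture at day 3. The fractions D6T- and D6T+ of day 6 and D9T- and D9T+ of day 9 were sorted on Thy-1, a surface protein of fibroblasts. The fractions D12S+ and D12S- of day 12 and D16S+ and D16S- of day 16 were sorted on SSEA-1, a carbohydrate epitope found on pluripotent mouse cells. The study treats the Thy-1- and SSEA-1+ fractions as the successful route and the Thy-1+ and SSEA-1- fractions as the unsuccessful route. The last pair of libraries came from iPSCs, labelled as fully reprogrammed, and from wild-type mouse embryonic stem cells (mESCs) of the line ES-D3.

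The culture medium bears on these genes. MEFs were kept in medium with fetal bovine serum. The labels place reprogramming cells, iPSCs and mESCs in 1 medium, with knockout serum replacement, leukemia inhibitory factor, ascorbic acid, basic fibroblast growth factor (an activator of the pathway these genes restrain) and CHIR99021, an inhibitor of the kinase Gsk3. The methods of the study also name media with serum or serum replacement and without fibroblast growth factor, for the reprogramming cells and for both pluripotent lines, and do not say which library had which. A difference in medium is therefore possible between any library and D0, between days, between D16S+ and iPSCs, and between iPSCs and mESCs. It cannot be told apart from the effect of OSKM, of the day or of the cell line.

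In MAPK signalling, an active receptor tyrosine kinase engages adaptors that switch on Ras, and Ras starts a chain of Raf, MEK and ERK kinases. ERK enters the nucleus and induces transcription factor genes within minutes, and a second set of induced genes then damps the signal: Dusp proteins remove the activating phosphates from ERK, p38 or JNK, and Sprouty and Spred proteins act above them, between the receptor and Raf. The messenger RNA of these genes is therefore often read as an output of the pathway. In mouse embryonic stem cells, ERK signalling driven by Fgf4 is known for moving the cells away from self-renewal.

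Levels are FPKM, fragment counts scaled by transcript length and by mapped fragments. Differences are in log2(FPKM + 1), so those of genes with low FPKM come out too small. Each condition has 1 library, so no difference has a replicate check and none was tested. The deposited table gives an interval for each FPKM, modelled by the authors' software, and for the 108 member values its half-width was 103.6% of the FPKM in the median. For none of the 9 members did the intervals of any of the 66 pairs of libraries lie apart. Orders of levels and counts past 2-fold below are therefore descriptions of these 12 libraries. Intervals lay apart in 0.134% of the 14178 genes with at least 1 FPKM in at least 1 library for D3 against D0, in 0.896% for D16S+ against D0, in 0.388% for D16S- against D0 and in 0.987% for iPSCs against D0. The share was 0.0141% for D16S+ against D16S-, 0.0282% for iPSCs against D16S+, and 0.00% for the fractions of days 6, 9 and 12 and for mESCs against iPSCs.

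Fibroblast and pluripotent cell markers followed the labels. The summed FPKM of 10 fibroblast markers was 7921 in D0 and between 38.5 and 56.1 in D16S+, iPSCs and mESCs, and that of 8 pluripotent cell markers was 2.12 in D0 and between 3569 and 4814 in the same 3 libraries. The summed FPKM of 6 leukocyte markers was between 15.5 and 82.1 in 11 libraries and 145 in D16S-. Most of it in D16S- was Cd68 (115 FPKM, against 9.05 in D0) and Csf1r (19.9 against 1.55), while Ptprc, the pan-leukocyte gene, was 0.0269 FPKM there and at most 0.425 in any library, and was listed at 0 in D16S+, iPSCs and mESCs. The summed FPKM of 4 muscle cell markers was 85.4 in D0 (Des 54.7 and Myog 24.2), 51.5 in D3 and between 3.92 and 26.0 elsewhere. That of 4 endothelial cell markers was 12.5 in D0, of which Cdh5 made up 11.8, and between 1.04 in D6T- and 62.4 in mESCs elsewhere. In mESCs Pecam1 made up 61.1 of it and Cdh5 was 0.243 FPKM, and Pecam1 was also 31.9 in D16S+ and 27.3 in iPSCs. The part of such cells in the D0 levels of the members was not tested. Depth relative to D0, read from the steps of low values, lay between 0.967 in D9T+ and 1.56 in D6T-, and absolute depth is unknown.

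All 9 members were expressed in all 12 libraries, from 1.68 FPKM for Dusp10 in mESCs to 112 FPKM for Dusp1 in D9T+. They did not move as 1 block. D0 held the highest level of 3 members (Dusp6, Spry1 and Spred1), D9T+ held that of another 3 (Dusp1, Dusp5 and Dusp10), and the remaining 3 peaked in D16S- (Dusp4), iPSCs (Spry2) and D12S- (Spry4). At the other end, mESCs held the lowest level of 6 of the 9 members. The share of all genes with their highest or lowest level in each of these libraries was not counted. When each member was set against its own mean over the libraries, the median of the 9 members was 0.93 in D9T+ and -1.15 in mESCs on the log2 scale, while the median of all 14178 genes stayed between -0.05 and -0.02.

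**Figure D1:**
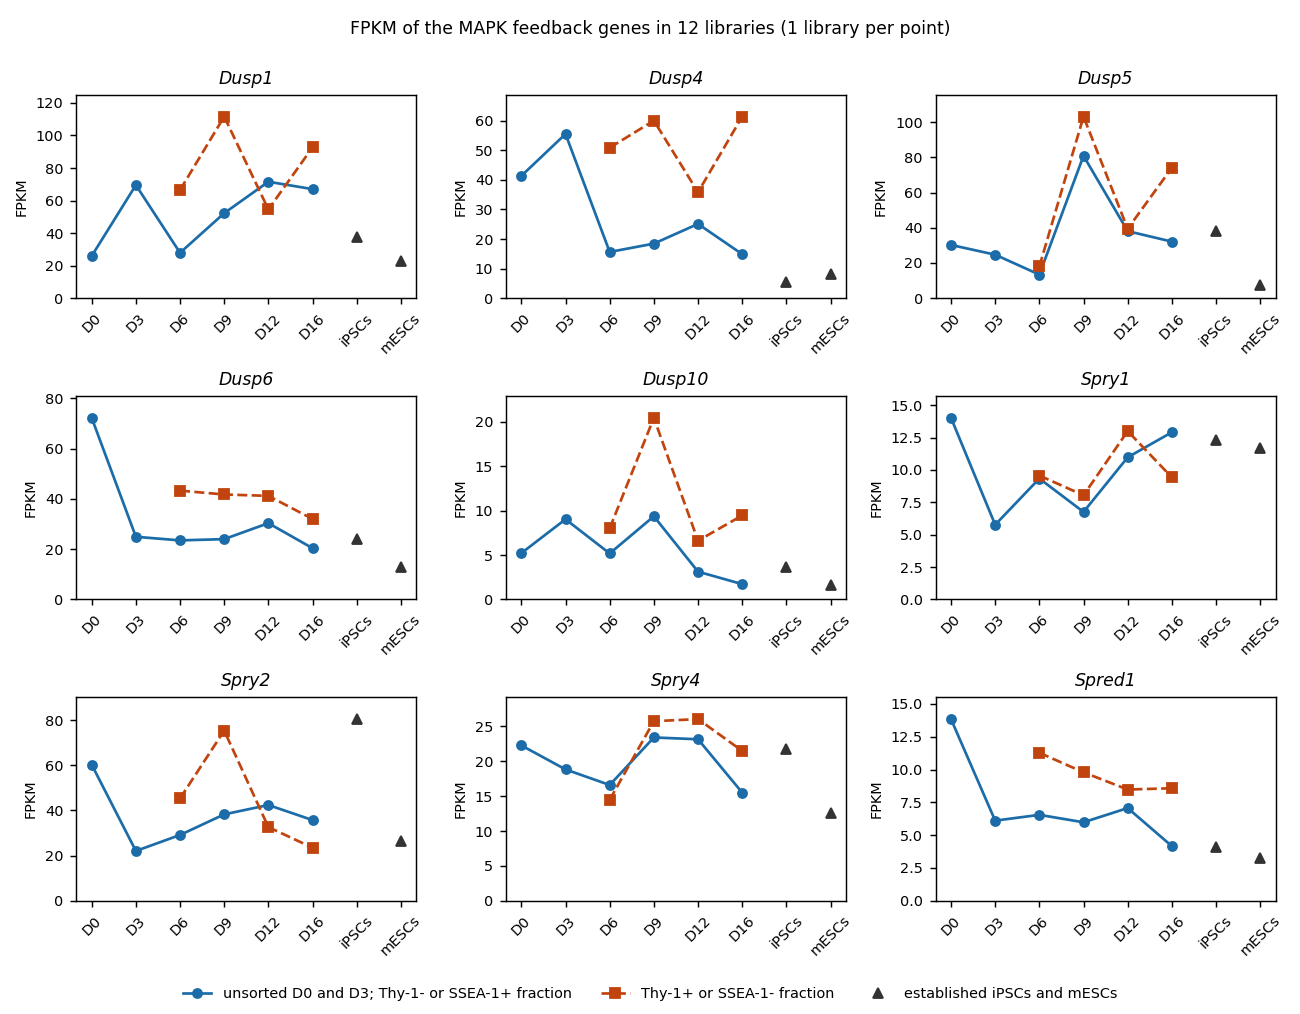
FPKM of each member (vertical axis, starting at 0, scaled per gene) by day of collection or cell type (horizontal axis), with 1 library per point and no error bar. Blue circles are D0, D3 and the Thy-1- or SSEA-1+ fractions, red squares the Thy-1+ or SSEA-1- fractions, and black triangles iPSCs and mESCs. Dusp4, Dusp6, Dusp10 and Spred1 have the red square above the blue circle on all 4 sorted days, and Dusp5 has its peak on day 9 in both fractions.

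Dusp1 encodes a nuclear phosphatase of p38, JNK and ERK and is a classical immediate-early gene. It lies on chromosome 17 (mm9, 26642535 to 26645464, minus strand). Its level was 25.9 FPKM in D0, 69.5 in D3, 27.9 in D6T-, 66.5 in D6T+, 52.3 in D9T-, 112 in D9T+, 71.6 in D12S+, 54.5 in D12S-, 67.0 in D16S+, 92.7 in D16S-, 37.6 in iPSCs and 23.0 in mESCs. The fibroblasts and the pluripotent lines thus sat at the low end, together with D6T-, and the libraries collected in between were higher. D3 was 2.68 times D0, and D9T+ was 4.85 times mESCs.

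Dusp5 encodes a nuclear phosphatase specific to ERK. It lies on chromosome 19 (mm9, 53603599 to 53616921, plus strand). Its level was 30.2 FPKM in D0, 24.7 in D3, 13.4 in D6T-, 18.03 in D6T+, 80.8 in D9T-, 103 in D9T+, 38.1 in D12S+, 39.4 in D12S-, 32.1 in D16S+, 74.0 in D16S-, 38.02 in iPSCs and 7.35 in mESCs. Day 9 stood above all other days in both fractions. The day 9 level was 6.03 times the day 6 level in the Thy-1- fraction and 5.72 times in the Thy-1+ fraction, and by day 12 it was lower again in both fractions. Dusp5 also had the widest range of the 9 members, 14.03 times from mESCs to D9T+. The iPSCs were 5.17 times the mESCs.

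The promoters of Dusp1 and Dusp5 are shown because each holds a binding motif of the signalling that induces immediate-early genes. Promoter windows of 300 bases, 250 before the start site and 50 after it, were taken from RefSeq (GRCm38.p6, another build than that of the table) and could be read for 7 of the 9 members. Both strands were searched for TGACGTCA (the cAMP response element), TGANTCA (AP-1), CCGGAAG (ETS factors) and the CArG box (serum response factor). The Dusp1 stretch runs from 200 to 51 bases before the start site (chr17:26508523-26508672, minus strand), with the cAMP response element in capitals, and the Dusp5 stretch covers the last 150 bases before it (chr19:53528995-53529144, plus strand), with 2 adjoining CArG boxes in capitals:
Dusp1: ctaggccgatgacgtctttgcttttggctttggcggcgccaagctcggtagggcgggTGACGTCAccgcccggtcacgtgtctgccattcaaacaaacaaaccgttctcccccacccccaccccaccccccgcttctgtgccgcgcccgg
Dusp5: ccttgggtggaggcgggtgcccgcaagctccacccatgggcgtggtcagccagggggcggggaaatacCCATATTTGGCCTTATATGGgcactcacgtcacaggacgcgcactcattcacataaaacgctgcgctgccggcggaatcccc

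The Dusp1 match starts 143 bases before the start site, and the Dusp5 matches start 82 and 72 bases before it. Over all 32851 windows of this length, 1.79% held TGACGTCA, 1.63% a CArG box, 7.81% TGANTCA and 8.86% CCGGAAG. None of the 4 motifs was found in the windows of Dusp6, Dusp10, Spry1, Spry2 and Spred1. A match says only that these letters stand in the window.

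Dusp4 encodes the other inducible nuclear phosphatase of the group. It lies on chromosome 8 (mm9, 35870351 to 35882948, plus strand). Its level was 41.3 FPKM in D0, 55.5 in D3, 15.6 in D6T-, 50.8 in D6T+, 18.4 in D9T-, 60.0 in D9T+, 25.1 in D12S+, 35.8 in D12S-, 14.9 in D16S+, 61.3 in D16S-, 5.32 in iPSCs and 8.14 in mESCs. The successful fractions lay between 14.9 and 25.1 FPKM and the unsuccessful fractions between 35.8 and 61.3. The share of all genes whose routes separate in this way was not counted. D6T+ was 3.25 times D6T-, D9T+ was 3.25 times D9T-, D12S- was 1.43 times D12S+ and D16S- was 4.12 times D16S+. No other member separated the routes this far on the mean of the 4 days (-1.44 on the log2 scale). From D0 to iPSCs Dusp4 was 7.77 times lower, the largest difference of any member in that comparison.

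Dusp6 encodes the cytoplasmic phosphatase of ERK and is widely used as a readout of fibroblast growth factor signalling. It lies on chromosome 10 (mm9, 98725865 to 98730122, plus strand). Its level was 72.2 FPKM in D0, 24.9 in D3, 23.5 in D6T-, 43.3 in D6T+, 24.0 in D9T-, 41.8 in D9T+, 30.4 in D12S+, 41.2 in D12S-, 20.4 in D16S+, 32.0 in D16S-, 23.9 in iPSCs and 12.8 in mESCs. D0 stood above all other libraries, and D3 was 2.90 times lower. After day 3 the successful fractions stayed between 20.4 and 30.4 FPKM and the unsuccessful fractions between 32.0 and 43.3. How many of all genes show such a gap was not counted.

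Dusp10 encodes a phosphatase of p38 and JNK rather than ERK. It lies on chromosome 1 (mm9, 185837181 to 185899515, plus strand), and a gene of the opposite strand, 1700056E22Rik, overlaps it there, so fragments of the 2 may be shared if the counting did not use strand. Its level was 5.22 FPKM in D0, 9.04 in D3, 5.18 in D6T-, 8.01 in D6T+, 9.37 in D9T-, 20.5 in D9T+, 3.13 in D12S+, 6.62 in D12S-, 1.73 in D16S+, 9.47 in D16S-, 3.65 in iPSCs and 1.68 in mESCs. D9T+ was more than any other library, and D16S+ and mESCs were the lowest. D16S- was 5.47 times D16S+, the largest ratio between fractions of 1 day among the members, at levels where the added 1 shrinks the log2 difference to 1.94.

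Spry1, Spry2 and Spry4 encode membrane-associated inhibitors that are phosphorylated on receptor activation and block the step to Ras or Raf. Spry2 lies on chromosome 14 (mm9, 106291166 to 106296036, minus strand). Its level was 60.3 FPKM in D0, 22.1 in D3, 29.1 in D6T-, 45.4 in D6T+, 38.3 in D9T-, 75.4 in D9T+, 42.4 in D12S+, 32.6 in D12S-, 35.7 in D16S+, 23.5 in D16S-, 80.5 in iPSCs and 26.4 in mESCs. It was the only member with its highest level in a pluripotent line, and the other pluripotent line was among its 3 lowest libraries. The iPSCs were 2.25 times D16S+ and 3.05 times mESCs. Its sorted fractions changed order: the Thy-1- fraction was below the Thy-1+ fraction on days 6 and 9 (-0.62 and -0.96), and the SSEA-1+ fraction was above the SSEA-1- fraction on days 12 and 16 (0.37 and 0.58).

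Spry1 lies on chromosome 3 (mm9, 37538869 to 37543520, plus strand). Its level was 14.02 FPKM in D0, 5.77 in D3, 9.34 in D6T-, 9.57 in D6T+, 6.76 in D9T-, 8.04 in D9T+, 11.0 in D12S+, 13.0 in D12S-, 12.9 in D16S+, 9.43 in D16S-, 12.3 in iPSCs and 11.7 in mESCs. D0, both fractions of day 12, D16S+ and the pluripotent lines lay between 11.0 and 14.02 FPKM, and the low values were those of D3 and day 9. D9T+, the highest library of Dusp1, Dusp5 and Dusp10, was thus among the 3 lowest of Spry1.

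Spry4 lies on chromosome 18 (mm9, 38745922 to 38760922, minus strand). Its level was 22.3 FPKM in D0, 18.8 in D3, 16.6 in D6T-, 14.5 in D6T+, 23.4 in D9T-, 25.8 in D9T+, 23.2 in D12S+, 26.1 in D12S-, 15.5 in D16S+, 21.5 in D16S-, 21.7 in iPSCs and 12.6 in mESCs. This was the flattest member, with 2.07 times between its highest and its lowest library, against 2.43 times for Spry1 and 3.65 times for Spry2.

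Spred1 encodes an inhibitor that brings neurofibromin, the Ras-inactivating protein, to the membrane. It lies on chromosome 2 (mm9, 116947110 to 117008015, plus strand). Its level was 13.8 FPKM in D0, 6.11 in D3, 6.55 in D6T-, 11.3 in D6T+, 5.98 in D9T-, 9.79 in D9T+, 7.06 in D12S+, 8.48 in D12S-, 4.16 in D16S+, 8.57 in D16S-, 4.13 in iPSCs and 3.28 in mESCs. D0 was the highest library, and the pluripotent lines were the lowest. The successful fractions lay between 4.16 and 7.06 FPKM and the unsuccessful fractions between 8.48 and 11.3, a gap not counted over all genes.

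The sorted fractions ask which members go with the route a cell took. On day 6, 2 of the 9 members were at least 2-fold lower in D6T- than in D6T+ (Dusp1 and Dusp4) and none was 2-fold higher, against 9.47% and 2.93% of all genes. On day 9, 3 members were at least 2-fold lower in D9T- (Dusp1, Dusp4 and Dusp10) and none higher, against 6.45% and 1.81% of all genes. On day 12 no member was 2-fold apart in either direction, against 3.03% of genes lower and 4.79% higher in D12S+. On day 16, 3 members were at least 2-fold lower in D16S+ (Dusp4, Dusp5 and Dusp10) and none higher, against 15.2% and 11.8% of all genes. All of the members past 2-fold on these days were phosphatases. With all libraries scaled to the same total FPKM, the day 9 differences of Dusp1 and Dusp10 came under 2-fold (-0.97 and -0.94). With a pseudocount of 0.1 in place of 1, Dusp10 passed 2-fold on day 12 (-1.06) and Spred1 on day 16 (-1.02).

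By sign alone, 8 of the 9 members were lower in D6T- than in D6T+, 9 in D9T-, 7 in D12S+ and 7 in D16S+. The share of all genes that were lower was 48.1%, 47.1%, 51.0% and 51.3% in the same comparisons. The day 6 difference of Spry1 was so close to 0 (-0.03) that it turned to 0.03 with the same total FPKM. The median difference of the members was -0.62, -0.77, -0.23 and -0.63 for days 6, 9, 12 and 16, with the median of all genes between -0.02 and 0.02. On all 4 days the successful fraction was the lower one for 5 members (Dusp4, Dusp5, Dusp6, Dusp10 and Spred1), which was the case for 24.8% of all genes.

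**Figure D2:**
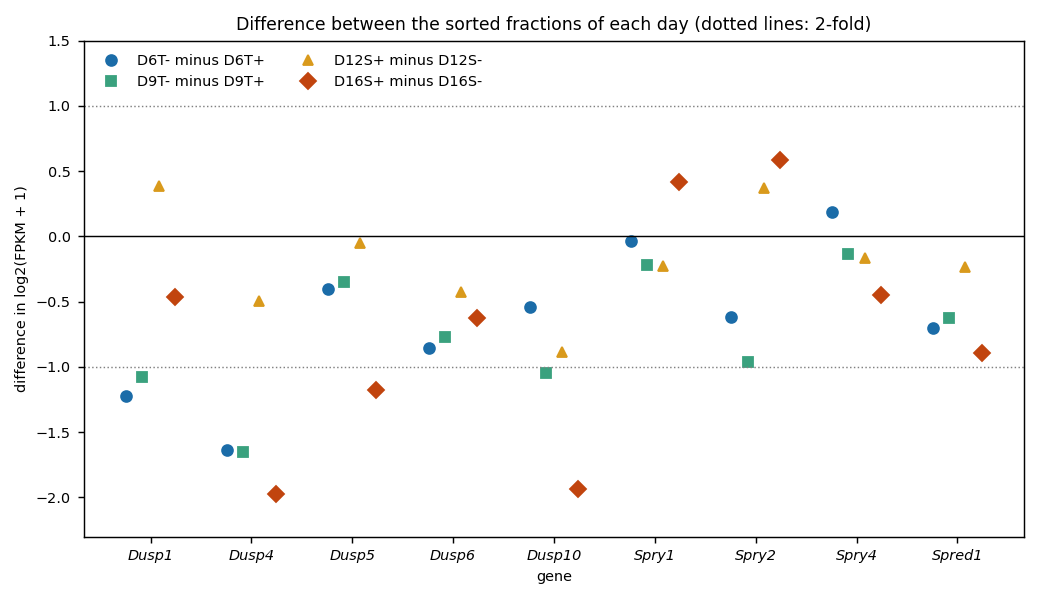
Difference in log2(FPKM + 1) between the successful and the unsuccessful fraction of 1 day (vertical axis) for each member (horizontal axis), with 1 pair of libraries per point and dotted lines at 2-fold. Most points lie below 0, those of Dusp4 reach -1.97 on day 16, and the points above 0 belong to Dusp1, Spry1, Spry2 and Spry4, none of them past 2-fold.

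Fibroblast content moved with these differences. All 10 fibroblast markers were lower in the successful fraction on each of the 4 days, and their summed FPKM was between 43.4 and 531 in the successful and between 557 and 3227 in the unsuccessful fractions, with no marker at 0. Among the 10 is Thy1, which encodes the sorting marker of days 6 and 9, so its order on those days followed from the sort. In these bulk libraries fewer fibroblasts and less of a transcript per cell cannot be told apart. The leukocyte sum was also higher in D16S- than in D16S+ (145 against 70.7 FPKM), with 4 of 5 kept markers higher in D16S-, 2 of them at least 2-fold. All 8 pluripotent cell markers were higher in the successful fraction on each of the 4 days (median 0.21 on day 6, 1.24 on day 9, 3.79 on day 12 and 4.39 on day 16). On day 6 their summed FPKM was only 4.92 in D6T- and 2.44 in D6T+, with 1 of the 8 at 1 FPKM or more in each. Of 6 epithelial markers, 4 were higher in D16S+ than in D16S- and 2 lower (Krt8, 149 against 543 FPKM, and Krt18, 259 against 664). The part of fibroblast, pluripotent, epithelial or leukocyte content in the differences of the members was not tested.

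At day 3, before any sort, the members did not share a direction. Of the 9, 4 were at least 2-fold lower than in D0 (Dusp6, Spry1, Spry2 and Spred1), against 8.67% of all genes, and 1 was at least 2-fold higher (Dusp1), against 5.76%. The differences were -1.50 for Dusp6, -1.41 for Spry2, -1.15 for Spry1, -1.06 for Spred1 and 1.39 for Dusp1. The calls of Spry1 and Spred1 were lost (-0.90 and -0.81) when all libraries were scaled to the same total FPKM, since D0 had the highest total and this scaling moved the median of all genes by 0.14. It also raised the share of higher genes among all genes past 2-fold from 39.9% to 56.5%.

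Both routes were also set against D0 on day 16. In D16S+, 4 members were at least 2-fold lower than in D0 (Dusp4, Dusp6, Dusp10 and Spred1) and 1 was higher (Dusp1), against 20.9% and 20.0% of all genes. In D16S-, 2 were lower (Dusp6 and Spry2) and 2 were higher (Dusp1 and Dusp5), against 11.4% and 12.8%. The median of the members was -0.74 in D16S+ and -0.05 in D16S-, both against the same D0 library, and the latter turned to 0.24 with the same total FPKM. With the same total FPKM, which moved the median of all genes by 0.30 in D16S+ and 0.19 in D16S-, Dusp10 lost its call in D16S+ (-0.87), and in D16S- Dusp6 lost its call (-0.85) and Dusp10 gained one (1.00). The share of higher genes among all genes past 2-fold went from 48.9% to 65.5% in D16S+ and from 52.9% to 68.1% in D16S-.

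In the comparison of iPSCs with D0, 3 members were past 2-fold and lower (Dusp4, -2.74, Dusp6, -1.55, and Spred1, -1.53), against 21.6% of all genes, and no member was higher, against 18.7%. The other 6 members differed from D0 by between -0.42 (Dusp10) and 0.52 (Dusp1), and those of Spry1 and Spry4 (-0.18 and -0.04) turned to 0.05 and 0.20 with the same total FPKM. Between D16S+ and iPSCs 1 member was at least 2-fold higher in iPSCs (Spry2, 1.15) and 1 lower (Dusp4, -1.33), against 4.38% and 7.77% of all genes (36.1% of the genes past 2-fold were higher, or 23.0% with the same total FPKM). The difference of Spry2 became 0.98 with the same total FPKM, and that of Dusp10 (0.77) became 1.03 with a pseudocount of 0.1.

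Between the 2 pluripotent lines, 8 of the 9 members were lower in mESCs than in iPSCs. The median was -0.74 for the members and 0.01 for all genes, and the share of all genes that were lower was not counted. Of the members, 2 were at least 2-fold lower (Dusp5, -2.22, and Spry2, -1.57), against 6.79% of all genes, and none was 2-fold higher, against 7.41%. The exception in sign was Dusp4 (0.53). Dusp10 (-0.79) passed 2-fold with a pseudocount of 0.1 (-1.07). Markers of epithelial cells moved with these differences: all 6 were lower in mESCs, 4 of them at least 2-fold (median -1.24), with a summed FPKM of 1589 in iPSCs and 295 in mESCs and none at 0. Krt8 was 483 and 26.7 FPKM and Krt18 711 and 36.5. Their part in the differences of the members was not tested.

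Over the 12 libraries the members fell into several patterns. Among the 36 pairs of members, 29 had a Pearson correlation above 0 and 7 below 0, with a median of 0.39. The most alike were Dusp6 and Spred1 (r = 0.95, and between 0.93 and 0.97 when any 1 library was left out), the 2 members with D0 highest and D6T+ second. Dusp5 went with Spry4 (r = 0.82) and with Dusp1 (r = 0.69), and Dusp4 with Spred1 (r = 0.80) and Dusp10 (r = 0.73). With any 1 library left out, each of these was lowest without mESCs (0.72, 0.56, 0.75 and 0.65 in the same order). The libraries are steps of 1 time course and share their normalisation, so these values describe the series and were not tested.

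Spry1 stood apart: 6 of its 8 correlations with other members were below 0, the furthest being -0.64 with Dusp10. The highest correlation of Spry2 was 0.45, with Dusp6. Among the Sprouty genes themselves, r was 0.30 for Spry1 with Spry2, 0.39 for Spry2 with Spry4 and -0.09 for Spry1 with Spry4.

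**Figure D3:**
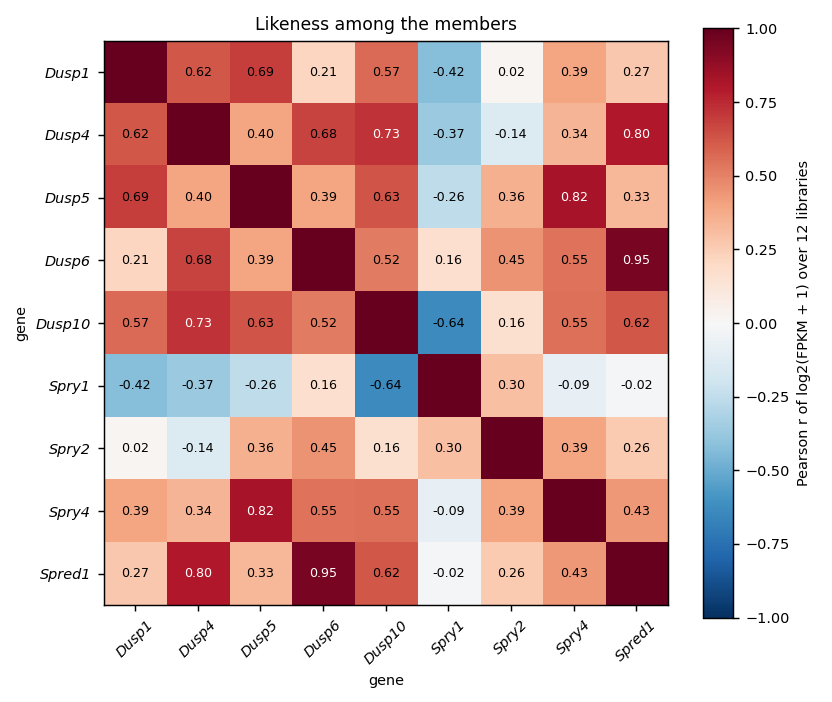
Pearson r of log2(FPKM + 1) over the 12 libraries for each pair of members, genes on both axes, with red above 0 and blue below 0. Dusp6 with Spred1 is the deepest red pair (0.95), and the Spry1 row and column hold most of the blue cells, down to -0.64 with Dusp10.

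Among 10792 other genes with at least 5 FPKM in a library, those most like each member were found by the same measure. Spred1 was nearest to Ikbke and Snx32 (r of 0.98 each), Dusp4 to Nfatc1 and Ldlrad4 (0.96 each), Dusp6 to Zfp467 and Dnajc14 (0.95 each) and Dusp10 to Ptx3 and Lats2 (0.92 each). Dusp5 was nearest to Pex16 and Dcun1d3 (0.90 each). The nearest genes of Dusp1 (LOC547349 and Cbr3, 0.87 and 0.86), Spry1 (Pagr1a and Pddc1, 0.85 and 0.84), Spry2 (Tmed1 and Slc10a7, 0.85 and 0.81) and Spry4 (Cox8b and Itgb5, both 0.86) were less alike. Ikbke, which was most like Spred1, went from 38.3 FPKM in D0 to 1.99 in iPSCs.

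The rest of both families did not share 1 course. Dusp9, an X-linked phosphatase selective for ERK, was 41.3 FPKM in D0, 2.86 in D6T-, 131 in D16S+, 162 in iPSCs and 155 in mESCs, and was at least 2-fold higher in iPSCs than in D0 (1.95). It was thus high in the pluripotent lines, where Dusp4 was lowest, and it was also high in D16S- (103 FPKM). Dusp7, another cytoplasmic ERK phosphatase, was 22.9 FPKM in D0 and 7.26 in iPSCs (-1.53). Dusp16, a JNK and p38 phosphatase, lay between 4.89 and 10.4 FPKM, and Dusp8 was at most 7.67 and Dusp2 at most 3.41 FPKM. Spred3 was 33.8 FPKM in D0 and 2.59 in iPSCs (-3.27) and was also lower in D16S+ than in D16S- (-1.999), while Spred2 stayed between 18.5 and 26.5 FPKM in all libraries and Spry3 did not exceed 0.305 FPKM.

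Immediate-early transcription factor genes are the first nuclear response to ERK. Of 10 such genes, 7 had their highest level in D9T+ (Fosb, Junb, Egr1, Egr2, Egr3, Ier2 and Srf). D9T+ was also the highest library of Dusp1, Dusp5 and Dusp10, and the share of all genes highest there was not counted. Egr1 was 61.9 FPKM in D0, 28.7 in D3, 148 in D6T-, 102 in D6T+, 240 in D9T-, 386 in D9T+, 131 in D12S+, 170 in D12S-, 43.5 in D16S+, 127 in D16S-, 7.55 in iPSCs and 4.35 in mESCs. On day 16 all 10 genes were lower in D16S+ than in D16S-, 8 of them at least 2-fold (median -1.27), against 51.3% and 15.2% of all genes. On day 12, 5 of 10 were lower in D12S+ and 5 higher (median -0.05), against 51.0% of all genes lower. On day 9, 9 of 10 were lower in D9T- (median -0.64), against 47.1% of all genes. On day 6, 3 of 10 were lower in D6T- and 7 higher (median 0.58), against 48.1% lower. Day 6 therefore had these genes higher in the fraction in which 8 of the 9 members were lower.

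Their summed FPKM lay between 303 and 1549 in the sorted libraries and between 132 and 475 in the unsorted D0, D3, iPSC and mESC libraries. Cells were harvested with trypsin in all conditions and some were then sorted, and the part of this handling in the levels of Dusp1, Dusp5 and Dusp10 was not tested. Of 5 heat-shock genes, 1 was at least 2-fold lower in D9T- than in D9T+, against 6.45% of all genes: Hspa1b, a stress-inducible gene, at 1.22 and 3.62 FPKM. Hspa1b was highest in D6T+ (8.93 FPKM), and the constitutive Hspa8 was 329 FPKM in D9T+, its lowest library.

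**Figure D4:**
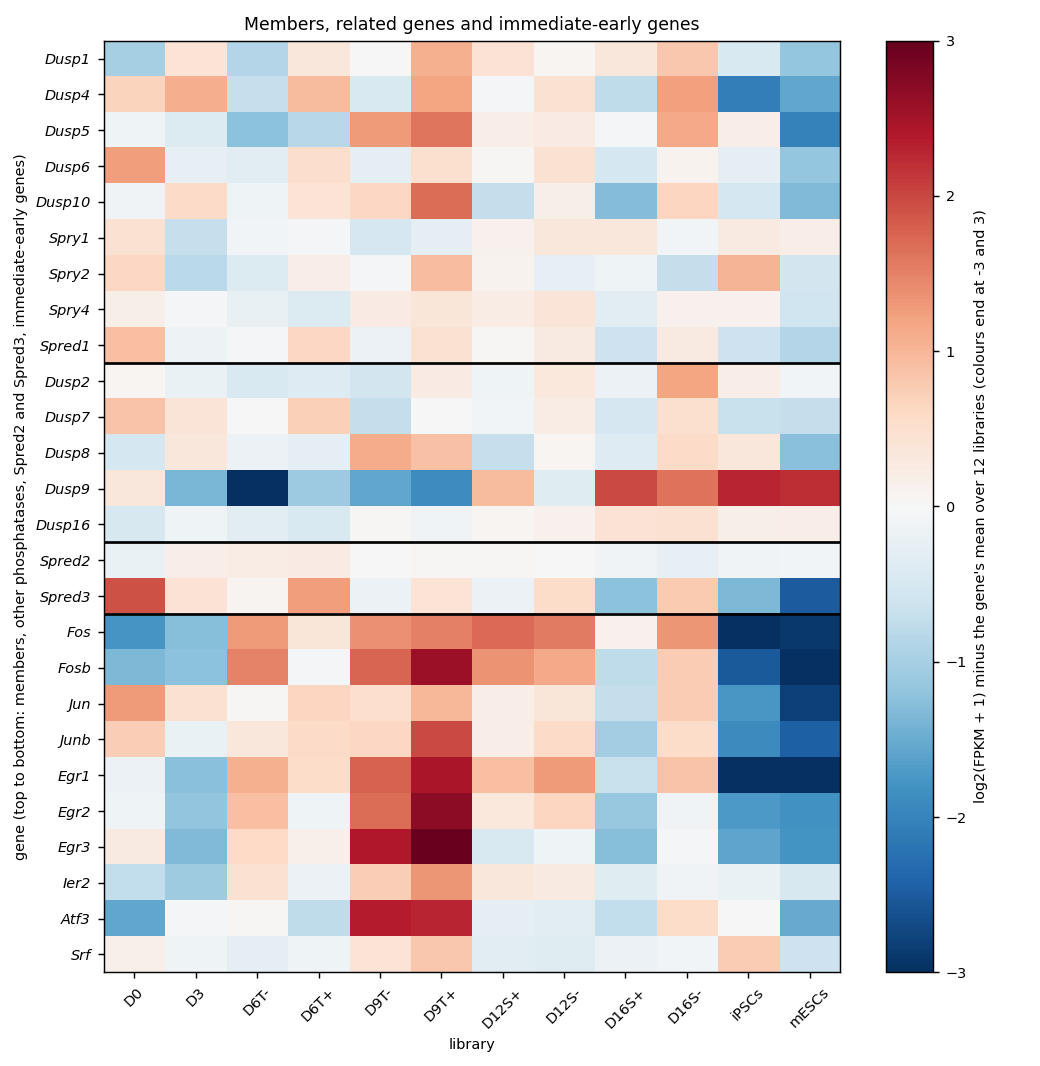
log2(FPKM + 1) minus each gene's own mean over the 12 libraries (colour, red above and blue below, ending at -3 and 3) for the members, the other phosphatases, Spred2 and Spred3, and 10 immediate-early genes (rows), by library (columns). The D9T+ column is red for 8 of the 9 members and for all 10 immediate-early genes, the mESC column is blue for 8 of the 9 members, and Dusp9 is blue in D6T- and red from D16S+ onwards.

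The other genes of the pathway were counted in the same way. The shares of all genes to read them against are 18.7% higher and 21.6% lower for iPSCs against D0, and 11.8% higher and 15.2% lower for D16S+ against D16S-. Of 11 Ras, Raf, MEK and ERK genes, 1 was past 2-fold and lower in iPSCs (Mapk3, encoding ERK1, 120 FPKM in D0 and 42.1 in iPSCs) and 1 higher (Braf, from 0.892 to 2.94 FPKM). Of 8 adaptor genes, numbers near those shares were past 2-fold, 2 higher in iPSCs (Gab1 from 5.02 to 96.7 FPKM, and Frs3 from 3.60 to 11.2) and 1 lower, and Gab1 was also 42.5 FPKM in D16S+ against 9.08 in D16S-. Of 10 p38 and JNK branch genes, 2 were lower in iPSCs than in D0 (Mapk11 from 16.5 to 2.60 FPKM, and Mapk12 from 15.4 to 4.75) and none was higher.

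Of 12 receptor tyrosine kinase genes, 4 were higher and 3 lower by at least 2-fold in iPSCs when set against D0 (18.7% and 21.6% of all genes), and the largest differences were those of the platelet-derived growth factor receptors Pdgfra (from 37.99 to 1.07 FPKM) and Pdgfrb (from 38.9 to 1.71). In D16S+ against D16S-, where 15.2% of all genes were lower and 11.8% higher, 6 of the 12 were lower and 1 higher (Kit, 10.2 against 0.839 FPKM). Of 15 ligand genes, 3 were higher in iPSCs than in D0 and 6 lower, against the same 18.7% and 21.6%, with Fgf4 at 0.0159 FPKM in D0 and 45.4 in iPSCs and Fgf7 at 23.2 and 0.731. Between the fractions of day 16, 2 ligand genes were higher in D16S+, among them Fgf4 (53.9 against 3.47 FPKM), and 6 were lower, among them the epidermal growth factor receptor ligand Areg (0.838 against 13.8 FPKM).

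Of 9 delayed targets of ERK, 3 were higher and 4 lower in iPSCs than in D0 (18.7% and 21.6% of all genes), and 1 was higher and 4 lower in D16S+ than in D16S- (11.8% and 15.2%). Fosl1, an AP-1 subunit gene, was 81.3 FPKM in D0, 4.05 in iPSCs, 4.94 in D16S+ and 60.4 in D16S-. Ier3 was 412 FPKM in D0 and 33.5 in iPSCs, and Ccnd1, encoding cyclin D1, was 35.3 FPKM in D16S+ and 246 in D16S-. Of 7 other negative feedback genes that were kept, 4 were lower and 2 higher in iPSCs than in D0 (21.6% and 18.7% of all genes), with Lrig1, an inhibitor of receptor tyrosine kinases, at 184 and 7.796 FPKM and Cblb, a ubiquitin ligase, at 19.2 and 2.30. Il17rd, a Sprouty-like inhibitor of fibroblast growth factor signalling, went the other way between the day 16 fractions, at 8.66 FPKM in D16S+ and 2.18 in D16S-.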

How the data were processed

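The authors prepared messenger RNA libraries from 12 mouse cell conditions, mapped the reads to the mm9 genome with STAR, removed reads with more than 2 mismatches or more than 1 locus, and estimated expression with Cuffdiff. The deposited values are FPKM per gene with both ends of an interval. Software versions, gene annotation, library scaling and the use of strand in counting are not given in the sources used here. A further 12 columns of status words were not used. The number of fragments per library was not used, and absolute depth is unknown.

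Groups came from the titles in the labels, with "pos" and "neg" in the column names read as the sign of the sorting marker. Differences were taken in log2(FPKM + 1). Genes with at least 1 FPKM in at least 1 library (14178 genes) formed the background. With 1 library per condition no test was made. Members at least 2-fold apart were counted in 10 comparisons, beside the same count over the background. Likeness is Pearson's r over the 12 libraries. Functions were tested on simulated data. Relative depth is the most common ratio of values under 0.5 FPKM between a library and D0. Positions are from GENCODE M1 on mm9, 1-based, and promoter windows from RefSeq on GRCm38.p6. Analyses used Python 3.11.15, numpy 2.4.6 and pandas 2.3.3.

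The members and the gene lists were chosen with earlier results of these data known. From each pathway list the text names the 2 genes with the largest difference between iPSCs and D0 and the 2 with the largest between D16S+ and D16S-, all kept or low genes of both short family lists, and, for each member, the 2 genes most like it among those with at least 5 FPKM in a library, leaving out the OSKM genes. Other list genes are named only where a count of them is given. Some genes that met this rule are not reported here. Alternatives were a pseudocount of 0.1, scaling to the same total FPKM, scaling by the median of ratios, a fold threshold of 4, the deposited intervals, and other filters on low values.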

Additional observations from a re-analysis of the deposited data

Results flagged for a closer look

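Spry2 was the only member whose fractions took opposite orders under Thy-1 and SSEA-1: the successful fraction was lower by 0.62 and 0.96 on days 6 and 9, and higher by 0.37 and 0.58 on days 12 and 16, on the log2(FPKM + 1) scale. The mean difference on the SSEA-1 days exceeded that on the Thy-1 days by 1.27. The difference was not tested, each value rests on 1 pair of libraries, and day and sorting marker cannot be told apart.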

How the results depend on the processing

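Medians of the members moved by less than 1.5-fold in all 10 comparisons under all 3 alternatives of pseudocount and scaling, and kept their direction in all but a pair of comparisons with the same total FPKM: that of D16S- against D0 went from -0.05 to 0.24 and that of iPSCs against D0 from -0.18 to 0.05. Counts of members at least 2-fold apart moved by more than 1.5 times in 22 of 50 cases. With a fold threshold of 4, 1 member remained in iPSCs against D0 (Dusp4) and 1 in mESCs against iPSCs (Dusp5), and the count was 0 in D3, D16S+ and D16S- against D0, in the fractions of days 6, 9 and 16 and in iPSCs against D16S+. When the deposited intervals had to lie apart, the count was 0 in all 10 comparisons. Scaling to the same total FPKM left 3 members in D3 against D0, 1 in D9T- against D9T+ (Dusp4) and 1 in iPSCs against D16S+ (Dusp4). A pseudocount of 0.1 gave 1 member (Dusp10) in D12S+ against D12S-. Over the 90 single differences, the median of ratios changed no call, the pseudocount of 0.1 changed 4 calls and the same total changed 8. The same total also turned the sign of 6 differences, 3 of Spry1 and 3 of Spry4, none of them past 2-fold. Without a filter on low values the shares of all genes past 2-fold were lower by more than 1.5 times in all 10 comparisons. No paired analysis was possible because the labels give no replicate numbers and each group holds 1 library. The fractions of a day were compared within that day, and a route effect with day as a block, which would take the 4 days as replicates of each other, was not fitted. The sort order of Spry2 kept its signs under every scaling tried.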

Other observations

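Since each condition had 1 library, differences between libraries and between conditions cannot be told apart, and leaving out a library removes the condition. The half-width of the deposited interval lay between 93.4% and 146.9% of the FPKM for the member values, and in 57 of 108 values the lower end was 0. Messenger RNA of these genes does not measure ERK, p38 or JNK activity. The mESC library had the lowest summed level of the 10 immediate-early genes (132 FPKM) and the lowest level of 6 members. How many of all genes are lowest there was not counted.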
